A study of Equus caballus with 4 samples.

Results

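The liver X receptor (LXR) axis was described in equine satellite cells, the muscle stem cells, after exposure to gamma-oryzanol (GO), a mixture of ferulic acid esters of plant sterols and triterpene alcohols. The set comprised 10 genes: the receptors NR1H2 and NR1H3, the target genes SREBF1, ABCA1, ABCG1, MYLIP, LPCAT3 and APOE, and the lysosomal sterol transporters NPC1 and NPC2. Noncontrol probes were taken where the gene name column held one of these symbols, regardless of case. That gave 15 probes for 8 of the 10 genes, among 13349 named genes on the array, and 14 of the 15 probes, for 7 genes, were bright enough to be tested. The cells were a primary culture from m. semitendinosus of 6-month-old colts. They received 0.125 µM GO for 24 h from 48 h of differentiation, whereas control cells received the DMSO vehicle alone (0.04 µl/ml), which the GO cells carried too. Both were collected on day 3 of differentiation. RNA of GO cells (Cy5) and of control cells (Cy3) was hybridized together on each of 4 two-color arrays. The titles of the arrays number these as replicates. According to the methods the best-scoring culture was taken forward, although cells of each isolation were plated separately. Thus the p-values may measure only the spread between cultures of a single animal. The 4 RNA samples were chosen for the highest RNA integrity. No array had the dyes the other way round, so dye and treatment cannot be told apart.

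LXRs are nuclear receptors that bind oxysterols, pair with a retinoid X receptor (RXR) and switch on genes that lower the sterol load of a cell. NR1H3 encodes LXRα and NR1H2 encodes LXRβ. Their targets export cholesterol (ABCA1 and ABCG1, with APOE as an acceptor), restrict its uptake (MYLIP, an E3 ubiquitin ligase for lipoprotein receptors), drive fatty acid synthesis (SREBF1) and remodel phospholipids (LPCAT3). NPC1 and NPC2 work upstream of the receptors, since NPC2 hands lysosomal cholesterol to NPC1 for exit from the lysosome. Some plant sterols are known to act on LXRs.

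Log2 ratios are those of GO over control on one array, and a signal is the background-subtracted, dye-normalized intensity of one channel. A probe was tested with limma if it was well above background in either channel on all 4 arrays. It was called when the adjusted p was at most 0.05 and the mean change was at least 1.3-fold (0.38 on the log2 scale). A gene with several probes was represented by its brightest one.

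The probes that the results turn on are given 5′ to 3′, with positions on EquCab1 as the array files list them. For the receptors and for SREBF1 and LPCAT3 a single probe stood for the gene, so the value of the gene is the value of that stretch. The NR1H3 probe lies at chr12:9054790-9054849 on the plus strand. The LPCAT3 probe spans chr6:34674968-34675277 on the minus strand, and the NR1H2 probe spans chrUn:234959640-234961561 on the plus strand. Both of those spans exceed the 60 bases of the probe, so each probe crosses an intron. The SREBF1 probe lies at chrUn:245935101-245935160 on the plus strand.
NR1H3: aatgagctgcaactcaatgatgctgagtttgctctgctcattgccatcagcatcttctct
NR1H2: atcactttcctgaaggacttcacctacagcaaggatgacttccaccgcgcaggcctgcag
SREBF1: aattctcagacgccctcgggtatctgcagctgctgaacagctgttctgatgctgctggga
LPCAT3: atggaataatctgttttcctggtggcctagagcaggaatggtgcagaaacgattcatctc

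NPC1 was read by 3 probes that tile one stretch of the transcript on the plus strand of chromosome 8, from 31744471 to 31745285, the first and the second of which cross an intron. They are shown because neighbors overlap by 30 bases and are thus not independent readings. Capitals mark the bases that each shares with the middle probe, which is in capitals throughout.
NPC1, first probe: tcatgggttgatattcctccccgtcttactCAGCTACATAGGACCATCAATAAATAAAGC
NPC1, middle probe: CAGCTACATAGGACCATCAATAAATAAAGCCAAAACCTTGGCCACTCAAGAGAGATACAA
NPC1, last probe: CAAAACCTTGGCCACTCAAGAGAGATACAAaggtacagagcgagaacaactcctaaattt

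The 2 MYLIP probes overlap in the same way, and the 30 bases that both hold, at chr20:15019417-15019446 on the plus strand, are cgaactgtaaaaaggatagattgtggagaa. The 5 NPC2 probes on chromosome 24 are shifted against each other by 1 base at a time, so that the outermost pair still shares 56 bases.

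Across the arrays as a whole, 26834 of 43603 probes were tested and 2399 (8.94%) were called, 894 higher and 1505 lower in GO. Between 57.4% and 68.9% of probes were well above background, depending on array and channel, and no spot was saturated. The muscle markers moved with the treatment, as 7 of 9 tested (DES, MYOG, MYF5, MYH3, MYH8, ACTA1 and TNNC1) fell, and their summed signal was 177779 to 240582 in control and 103959 to 144754 in GO. Of 7 tested fibroblast markers 1 rose (PDGFRA), and the summed fibroblast signal overlapped between channels, at 282042 to 446758 in control and 292864 to 404758 in GO. None of the 5 adipocyte and 5 endothelial markers with a probe could be tested. The adipocyte marker PPARG was well above background on 2 arrays in control and on 1 in GO. The other 4 adipocyte markers and the 5 endothelial markers were not well above background on any array. Of the 9 leukocyte markers with a probe 3 were tested (CD14, CD68 and FCER1G), and none of them was called. The part of these shifts in the results on LXR genes was not tested, and in such bulk samples fewer cells of a type and less RNA per cell cannot be told apart.

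NR1H3, the gene for LXRα, was higher in GO on all 4 arrays. Its control signals were 49.5, 63.3, 34.1 and 38.6 on arrays 1 to 4, and its GO signals were 59.9, 71.1, 49.3 and 58.3. The log2 ratios were 0.28, 0.17, 0.53 and 0.60, so arrays 3 and 4 showed the larger differences, while the signals of the channels overlapped between arrays. NR1H3 rose by a mean log2 ratio of 0.39 (SE 0.09, n = 4 arrays, 1.31-fold, limma adjusted p = 0.029). That fold lies just inside the threshold. The call was kept without array 2 (0.47) but not without array 1 (0.43, adjusted p = 0.051), array 3 (0.35, adjusted p = 0.104) or array 4 (0.33, adjusted p = 0.076). Before background subtraction and dye normalization the GO channel was the lower one on arrays 2 and 3, with mean raw signals of 163.8 against 180.6 and 115.3 against 154.5. This was not particular to NR1H3. On array 3 the raw GO signal was also the lower one for LPCAT3 (947.4 against 1000.8) and both MYLIP probes, whose log2 ratios there were above 0.

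NR1H2, the gene for LXRβ, had no common direction. Its control signals were 169.9, 344.6, 155.0 and 201.1, against 286.5, 375.9, 159.3 and 135.1 in GO. The log2 ratio ran from 0.75 on array 1 through 0.13 and 0.04 on arrays 2 and 3 to -0.57 on array 4. The mean was 0.09 (SE 0.19, limma adjusted p = 0.78), with a 95% interval of -0.37 to 0.54 that passes the fold threshold upwards only. Its SD over arrays, 0.54, was well above the median SD of 0.14 over all tested probes.

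**Figure D1:**
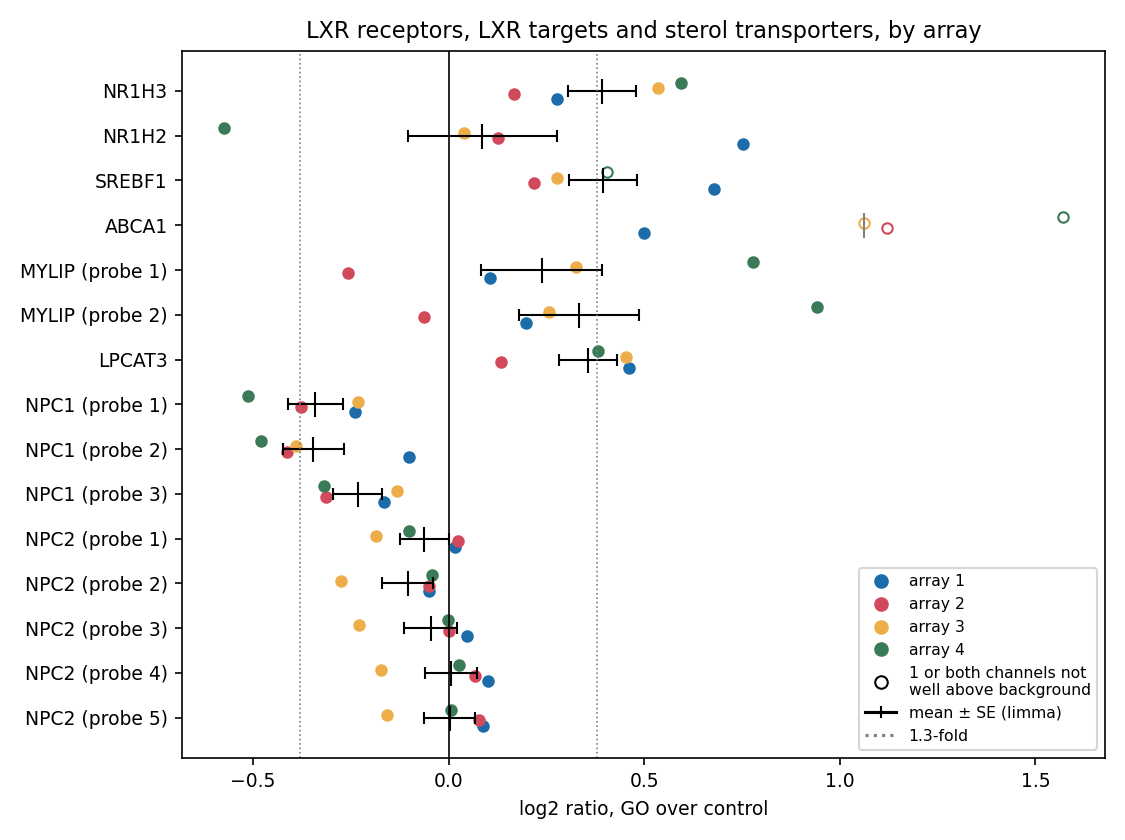
Log2 ratio (GO over control, x axis) on each of the 4 arrays for the 15 probes of the 8 genes that have one; black bars are the limma mean ± SE, the grey tick of ABCA1 is its untested mean, and dotted lines mark 1.3-fold. NR1H3, SREBF1, ABCA1 and LPCAT3 lie above 0 on all arrays and the 3 NPC1 probes below 0, whereas NR1H2 runs from -0.57 to 0.75; open points had a channel not well above background.

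RXRA and RXRB did not pass the test by their brightest probes, and RXRG was not well above background on any array. RXRB, at control signals of 130 to 187, had log2 ratios of 0.42, 0.04, 0.20 and 0.30 (mean 0.24, SE 0.08, limma adjusted p = 0.074) and was not called. The brightest RXRA probe gave 0.23, -0.01, 0.48 and 0.56 (mean 0.31, SE 0.10, limma adjusted p = 0.078) and was not called either.

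The RXRA probes disagreed with each other. The 5 probes lie on the minus strand of chromosome 25 between 2228631 and 2228695, and each shares 58 or 59 of its 60 bases with the next. Their mean log2 ratios, in transcript order, were 0.23, 0.31, 0.43, 0.36 and 1.23. The probe at 0.43 (limma adjusted p = 0.013) and the probe at 1.23 (limma adjusted p = 0.0010) were called, and the other 3 were not. The control signal of the probe at 1.23 was not well above background on array 1, so it entered the test through its GO channel, the higher one. It was above the other 4 on every array, at 1.37, 1.06, 1.34 and 1.14. Signals of the 5 RXRA probes were 18.2 to 43.5 in control and 33.2 to 58.5 in GO, a range that takes in the SREBF1 control values and part of the NR1H3 values. By contrast, the 5 NPC2 probes, at signals of 49021 to 79241, had means of -0.10 to 0.01. Thus the last pair of RXRA probes, shifted by 1 base, differed by 0.87 on the log2 scale. That step rests on the 1 probe that entered the test through its higher channel, and the other 4 means lay within 0.23 to 0.43. Whether the single probes of NR1H3 and SREBF1 carry such a difference was not tested.

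**Figure D2:**
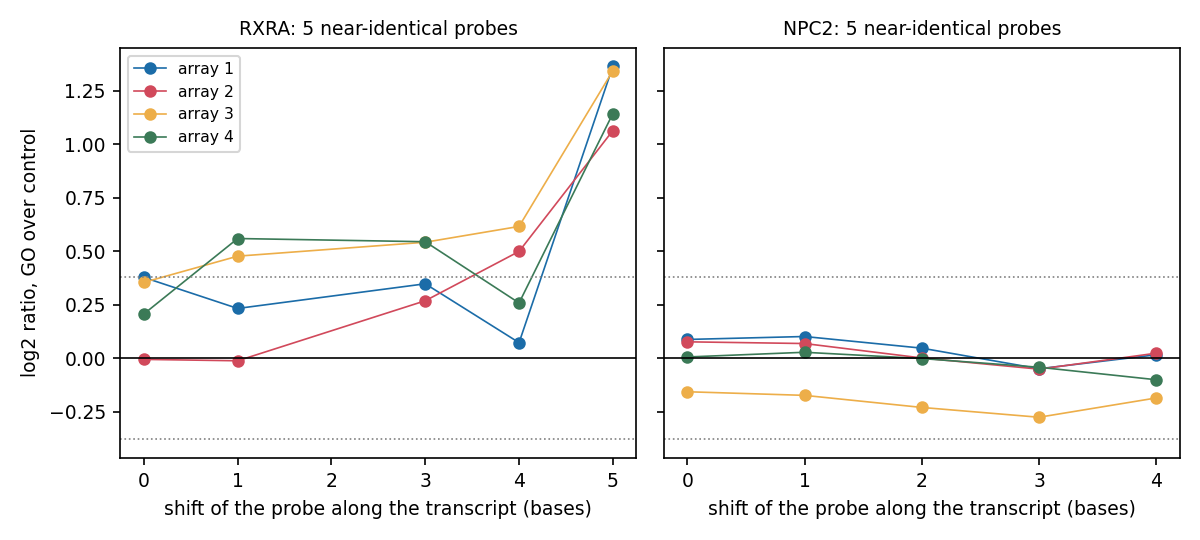
Log2 ratio (GO over control) on each array for 5 RXRA probes (left) and 5 NPC2 probes (right), against the shift of each probe along its transcript in bases; dotted lines mark 1.3-fold. The RXRA probe farthest along gave 1.06 to 1.37 while its neighbors stayed at or below 0.62, and the NPC2 probes stayed between -0.28 and 0.10 with array 3 lowest throughout.

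SREBF1, the lipogenic transcription factor and a classic LXR target, was higher in GO on all 4 arrays. Its signals were 18.5, 36.8, 28.3 and 21.4 in control and 29.6, 42.8, 34.3 and 28.3 in GO, with the GO channel of array 4 not well above background. The log2 ratios were 0.68, 0.22, 0.28 and 0.40, so array 1 stood highest. SREBF1 rose by a mean log2 ratio of 0.39 (SE 0.09, n = 4 arrays, 1.31-fold, limma adjusted p = 0.028). The call was lost when any single array was left out: the mean was 0.30 without array 1, and the adjusted p was 0.063, 0.068 and 0.067 without arrays 2, 3 and 4. Raw GO signals were below raw control signals on arrays 2, 3 and 4.

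ABCA1, the transporter that loads cholesterol onto lipid-poor apolipoproteins, could not be tested. Its log2 ratios were 0.50, 1.12, 1.06 and 1.57, positive on every array. The signals, however, were 19.1, 7.3, 5.7 and 3.4 in control and 27.0, 15.9, 11.9 and 10.0 in GO, and both channels were well above background on array 1 alone. The single array that measured the gene thus gave 0.50, the smallest of the 4 ratios. On array 4 the signal of 1 channel was too low to stand against its background, and Feature Extraction put a surrogate value in its place. Among the 16760 probes too dim to test, 858 (5.12%) likewise had a ratio above 0 on all 4 arrays. The 16760 include probes with a ratio of exactly 0 on some arrays, which could not count towards the 858. With every probe tested, ABCA1 had a limma adjusted p of 0.084. With another background correction (normexp with an offset of 50, then loess) its mean fell from 1.06 to 0.28. An offset of that size pulls the ratios of such dim signals towards 0 by construction. With normexp without an offset, then loess, the mean of ABCA1 was 0.67.

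No probe carried ABCG1 or APOE in its gene name column. One probe outside the rule is described as ABCG1, the transporter that passes cholesterol to HDL, and one as APOE. The ABCG1 probe was not well above background on any array in either channel, so no difference is given. The APOE probe was well above background on arrays 1 and 2, with signals of 34.4 and 24.5 in control and 24.7 and 19.1 in GO. Its log2 ratios on these arrays were -0.48 and -0.36, and it was not tested.

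MYLIP had 2 probes with the same pattern over arrays. The brighter one gave control signals of 181.3, 160.7, 332.0 and 116.6, and GO signals of 208.2, 153.8, 396.8 and 223.9. Its log2 ratios were 0.20, -0.06, 0.26 and 0.94, and those of the other probe were 0.11, -0.26, 0.33 and 0.78. In both, array 4 was highest and array 2 was below 0. The means of 0.33 (SE 0.15, limma adjusted p = 0.17) and 0.24 (SE 0.16, limma adjusted p = 0.32) did not pass the test. Without array 4 the brighter probe fell to 0.13.

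Of the lipoprotein receptors that MYLIP marks for degradation, LRP8, a receptor for APOE and reelin, was examined beside it at the mRNA level. LRP8 had log2 ratios of 0.12, 0.12, -0.22 and -0.01 (mean 0.00, SE 0.08, limma adjusted p = 0.98) and was not called.

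LPCAT3, the acyltransferase that puts polyunsaturated chains on phospholipids, was higher in GO on all 4 arrays. Its control signals were 579.6, 771.7, 553.6 and 498.5, and its GO signals were 798.1, 846.8, 758.3 and 649.0. The log2 ratios were 0.46, 0.13, 0.45 and 0.38, with array 2 the lowest. The mean was 0.36 (SE 0.07, n = 4 arrays, 1.28-fold, limma adjusted p = 0.024), so LPCAT3 passed the adjusted p and lay just outside the fold threshold. Without array 2 it passed both (0.43, adjusted p = 0.038), whereas without arrays 1, 3 and 4 the adjusted p was 0.060, 0.092 and 0.063. Its relatives MBOAT1 (mean 0.23, limma adjusted p = 0.11) and LPCAT4 (mean 0.07, limma adjusted p = 0.55) were not called.

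**Figure D3:**
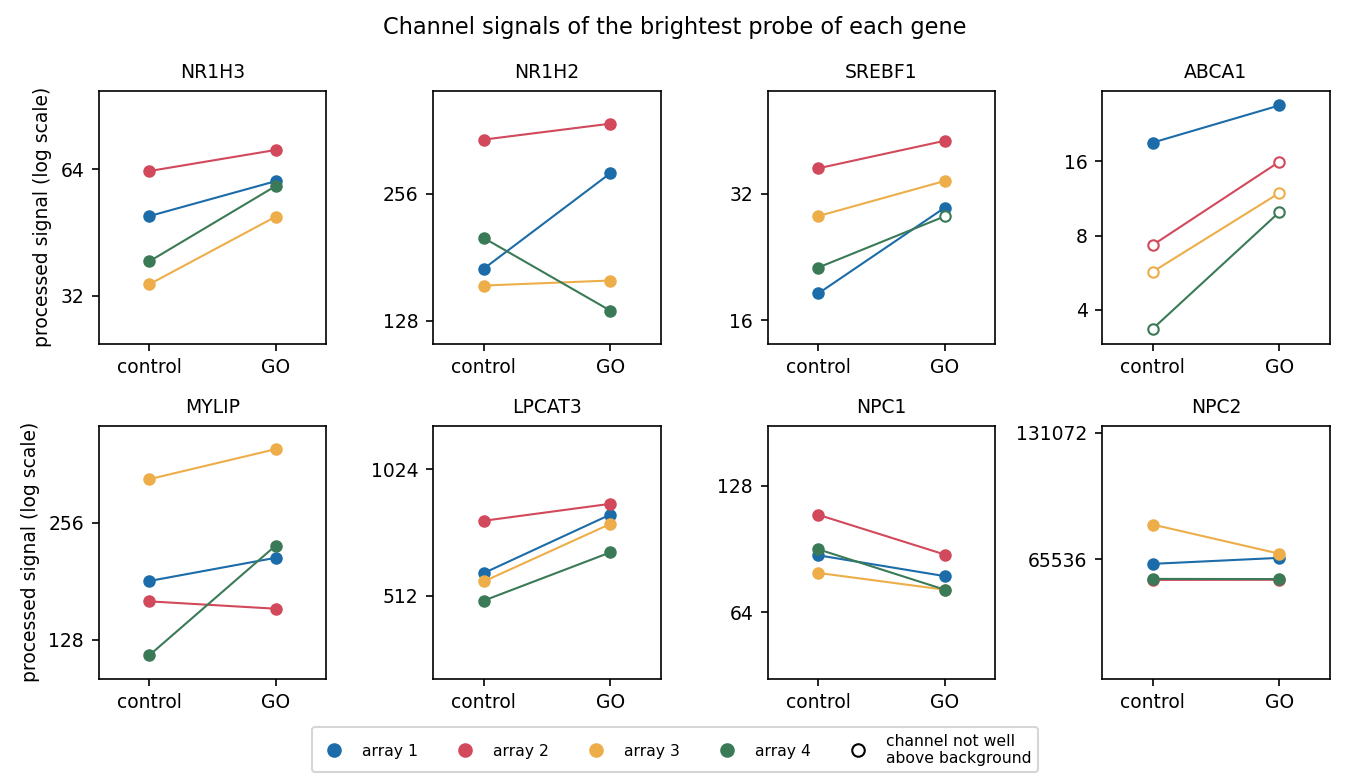
Processed signal (log scale) of the brightest probe of each gene in the control and GO channels, with lines joining the channels of an array; open points were not well above background. For NR1H3, SREBF1 and LPCAT3 all 4 lines slope up and for NPC1 all slope down, the NR1H2 lines cross, and 3 of the 4 ABCA1 pairs are open.

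NPC1, the membrane protein that moves cholesterol out of lysosomes, was lower in GO on all 4 arrays with each of its 3 probes. The brightest, the first in transcript order, had control signals of 87.4, 109.1, 79.4 and 90.4, and GO signals of 78.0, 87.8, 72.4 and 72.4. Its log2 ratios were -0.16, -0.31, -0.13 and -0.32 (mean -0.23, SE 0.06, limma adjusted p = 0.048). The middle probe gave -0.10, -0.41, -0.39 and -0.48 (mean -0.35, SE 0.08, limma adjusted p = 0.030).

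The last NPC1 probe gave -0.24, -0.38, -0.23 and -0.51 (mean -0.34, SE 0.07, limma adjusted p = 0.023). All 3 probes passed the adjusted p, and none reached 1.3-fold, with folds of 1.17, 1.27 and 1.27. Without array 1 the middle probe passed both thresholds (-0.43, adjusted p = 0.018), and without arrays 2, 3 and 4 it passed neither (adjusted p = 0.115, 0.104 and 0.085). The adjusted p of the brightest probe exceeded 0.05 whichever array was left out, at 0.064 to 0.18. None of the 3 probes passed the adjusted p with normexp and loess (0.108 to 0.118), where each mean was -0.14. The same held with every probe tested (0.079 to 0.106) and in a plain one-sample test (0.108 to 0.134). It also held with the channels fitted without the array as a block (0.37 to 0.55).

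NPC2, the soluble partner of NPC1 in the lysosome, did not differ beyond the spread between arrays in the ratios as deposited. Its 5 probes had signals of 49021 to 79241 in control and 49833 to 67565 in GO, far below saturation. On array 3 each probe had its lowest log2 ratio, from -0.28 to -0.16, and on the other arrays the ratios lay between -0.10 and 0.10. The brightest probe had a mean of -0.05 (SE 0.07, limma adjusted p = 0.67) and a 95% interval of -0.21 to 0.12, which lies within 1.3-fold. With normexp and loess the means of the 5 probes were 0.11 to 0.24, and 3 of them passed the adjusted p (0.047, 0.020 and 0.019) but not the fold. The brightest probe then had a mean of 0.17 (adjusted p = 0.065), and with normexp and no loess its mean was 0.73 (adjusted p = 0.14).

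Of the 7 genes tested 2 (NR1H3 and SREBF1) were called, both higher in GO. Among the 9059 named genes tested by their brightest probe, 788 (8.70%) were called and 302 (3.33%) were called higher. On the adjusted p alone 4 of the 7 genes passed (NR1H3, SREBF1 and LPCAT3 higher, NPC1 lower), beside 17.3% of named genes. The median log2 ratio of the 7 genes was 0.33, with a range of -0.23 to 0.39, and that of the named genes was 0.00.

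The called pair and NPC1 belonged to the dim end of the array. NR1H3, SREBF1, NPC1 and the dimmer MYLIP probe fell in the dimmest of 4 equal groups of tested probes, with mean signals of 12.1 to 98.8. In that group 5.49% of probes were called higher and 7.87% lower, and the median SD over arrays was 0.20. In the brightest group, which held NPC2, the shares were 1.43% and 5.11% and the median SD was 0.10.

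Of all 9059 named genes tested by their brightest probe, 8.70% were called. The other genes of the pathway, 118 in 8 lists, gave 3 calls among 65 tested in the same way. OSBPL3, an oxysterol-binding protein relative that works at membrane contact sites, fell most. Its signals were 727, 619, 908 and 680 in control and 414, 359, 421 and 382 in GO, without overlap. Its log2 ratios were -0.81, -0.79, -1.11 and -0.83 (mean -0.88, SE 0.07, limma adjusted p = 0.0022), and it was the only called gene of the 22 tested for intracellular sterol transfer (median 0.00). The brightest uncalled gene there, VAPB, an endoplasmic reticulum anchor for such proteins, had a mean of 0.14 (limma adjusted p = 0.17). OSBPL3 kept its call whichever array was left out. It lost the call in a plain one-sample test (adjusted p = 0.059) and with normexp and no loess (adjusted p = 0.18).

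NCOA1, a coactivator of nuclear receptors, fell and was read by 5 probes with means of -0.46 to -0.42, all called. The brightest gave -0.45, -0.30, -0.60 and -0.47 (mean -0.45, SE 0.07, limma adjusted p = 0.0090). NCOA1 kept its call whichever array was left out. The call was lost without the filter on dim probes (adjusted p = 0.051) and in a plain one-sample test (adjusted p = 0.080). The same held without the array as a block (adjusted p = 0.13) and with normexp and no loess (adjusted p = 0.47). NCOA1 was the only call among 10 tested RXRs and coregulators (median -0.04), and the brightest of the others, NCOA6, had a mean of 0.03 (limma adjusted p = 0.72). NRIP1, a corepressor of nuclear receptors, passed the adjusted p but not the fold, with log2 ratios of -0.49, -0.29, -0.25 and -0.40 (mean -0.36, limma adjusted p = 0.016).

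ABCA5, a lysosomal relative of ABCA1, rose, with log2 ratios of 0.23, 0.38, 0.58 and 0.62 (mean 0.45, SE 0.08, limma adjusted p = 0.016). A second ABCA5 probe had a mean of 0.44 (limma adjusted p = 0.053). Among the 10 ABCA and ABCG relatives with a probe 3 were tested, and ABCG2, a xenobiotic exporter, had a mean of 0.03 (limma adjusted p = 0.78). ABCA5 lost its call without array 2 or array 3 (adjusted p = 0.060 and 0.066) and without the filter on dim probes (adjusted p = 0.083). Its mean was below the fold threshold with normexp and loess, at 0.24 with the offset and 0.31 without.

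The remaining lists held no call. Among 10 tested of 21 other LXR target genes (median 0.14) ACACA, the enzyme that commits carbon to fatty acid synthesis, passed the adjusted p but not the fold (mean 0.32, limma adjusted p = 0.037). SCD, the stearoyl-CoA desaturase, had a mean of 0.31 (limma adjusted p = 0.050, just above the threshold), and PLTP, the phospholipid transfer protein, had 0.00 (limma adjusted p = 0.98). Among 9 genes of sterol sensing and SREBP processing (median 0.16), SREBF2 had 0.16 (limma adjusted p = 0.18), SCAP had -0.08 (limma adjusted p = 0.40) and INSIG1 had 0.21 (limma adjusted p = 0.11). Among 6 tested genes of sterol esters and oxysterols (median 0.21), the sterol isomerase EBP had a mean of 0.19 (limma adjusted p = 0.088) and the cholesterol acyltransferase SOAT1 had 0.06 (limma adjusted p = 0.50). The medians of 3 tested genes of lipoprotein uptake and 2 lysophospholipid acyltransferases were 0.14 and 0.15, and the brightest uptake gene, SORL1, had a mean of 0.22 (limma adjusted p = 0.056).

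**Figure D4:**
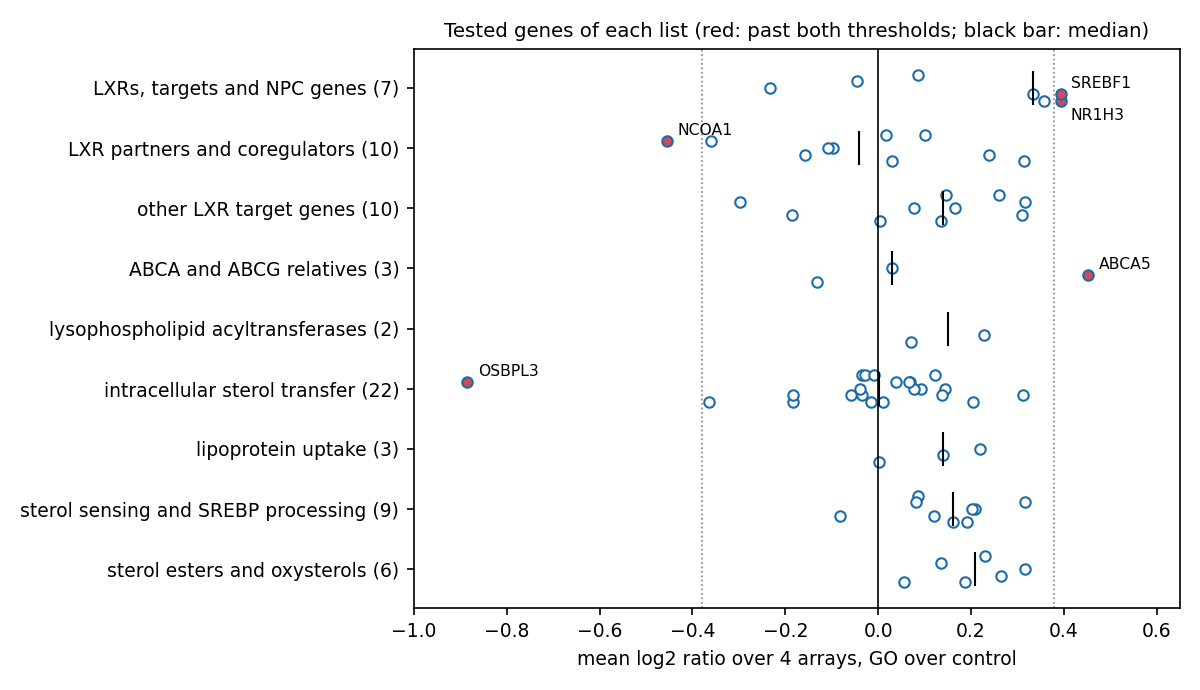
Mean log2 ratio over 4 arrays (x axis) of the brightest probe of each tested gene, by list, with the number tested in brackets; red points passed both thresholds, black bars are medians and dotted lines mark 1.3-fold. The red points are NR1H3 and SREBF1 in the top row, ABCA5 on the right, and NCOA1 and OSBPL3 on the left.

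The calls of NR1H3 and SREBF1 depended on how the dim signals were processed. With normexp and loess their means were 0.08 and 0.08 (adjusted p = 0.28 and 0.27), and with normexp without an offset they were 0.12 and 0.13 (adjusted p = 0.23 and 0.19). The median of the 7 genes was 0.08 with normexp and loess and 0.13 with normexp without an offset. An offset of 50 pulls ratios of signals as dim as those of NR1H3 and SREBF1 towards 0 by construction. Without the offset both means were still below the 0.39 of the ratios as deposited, and the cause was not tested. LPCAT3 kept a mean of 0.30 (adjusted p = 0.015) with normexp and loess. With normexp and no loess its mean was 0.37, but the adjusted p was 0.27. NR1H3, SREBF1 and LPCAT3 all missed the adjusted p without the filter on dim probes (0.118, 0.117 and 0.089) and in a plain one-sample test (0.144, 0.143 and 0.117). With the channels fitted without the array as a block, LPCAT3 had an adjusted p of 0.39.

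**Figure D5:**
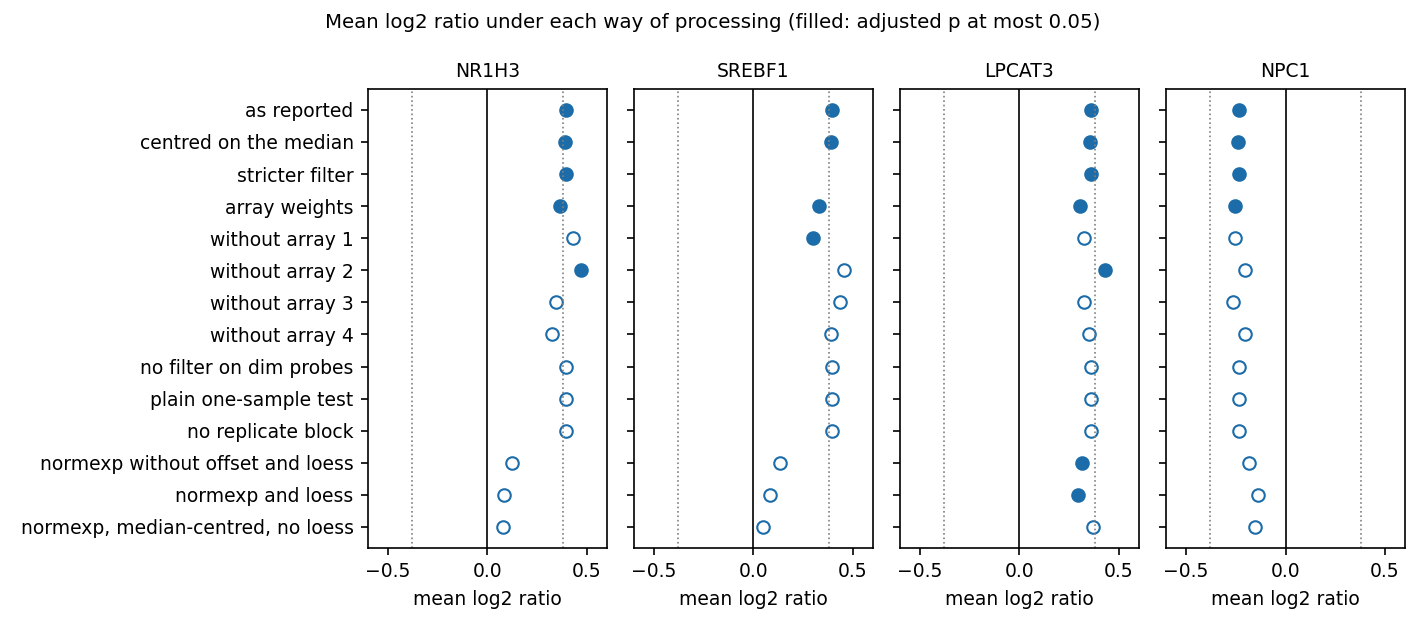
Mean log2 ratio (x axis) of the brightest probe of NR1H3, SREBF1, LPCAT3 and NPC1 as reported and under 13 other ways of processing; filled points had an adjusted p of at most 0.05 and dotted lines mark 1.3-fold. The direction is kept throughout, while NR1H3 and SREBF1 shrink to 0.05 to 0.13 in the 3 bottom rows. SREBF1 has no point for the stricter filter, under which it was not tested.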

How the data were processed

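The authors scanned the arrays with Agilent Feature Extraction, version 10.10.1.1 per the file headers, whereas the methods state another version. They deposited intensity values of both channels (raw, background-subtracted, and processed by linear and lowess dye normalization) and the log10 ratio of the processed Cy5 over Cy3 signal. The authors' series table held equal log10 ratios in 180880 of 180880 values. Ratios were multiplied by log2 of 10, control and outlier spots (10 to 19 per array) were left out, and spots of a probe were averaged.

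Probes that stood well above background throughout in at least 1 channel (26834 of 43603) were fitted with limma 3.58.1 in R 4.3.3 (intercept, two-sided, Benjamini-Hochberg over all tested probes), after tests on simulated data. The number of arrays limits the precision. The channels of an array deviated together (r = 0.48 to 0.86), so each ratio was taken within an array. Besides all members, each list names its called genes and its brightest uncalled gene. RXRA, RXRB, SREBF2, SCAP, INSIG1, SOAT1 and LRP8 are named in any case, and so are other genes chosen after their values were seen (LPCAT4, ACACA, SCD, NRIP1 and RXRG). The members and lists were chosen with earlier results of these data known, and 2 listed genes are not reported here. Alternatives were other background corrections, centring, filters, tests and left-out arrays.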

Additional observations from a re-analysis of the deposited data

Results flagged for a closer look

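In 3 of 32 sets of 4 log2 ratios checked (15 probes of the LXR set and the genes that the naming rule takes from the lists, without LPCAT4, ACACA, SCD, NRIP1 and RXRG) a single array stood apart from the other 3 by Dixon's criterion, which chance alone would meet in about 1 set in 20. One NPC2 probe had -0.28 on array 3, against -0.05, -0.05 and -0.04 on the others (gap over range 0.962). OSBPL3 had -1.11 on array 3, against -0.79 to -0.83 (gap over range 0.862). PLTP had 0.48 on array 1, against -0.21 to -0.10 (gap over range 0.836).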

How the results depend on the processing

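The count of LXR genes past both thresholds (2) was 0 with normexp and loess, normexp without loess, normexp without an offset, no filter, the plain one-sample test and array weights, 1 with the stricter filter and 4 on the adjusted p alone; without 1 array it was 0 to 2. The count of LXR probes (2) was 0 in the first 5 of these, and 1 with array weights and with the stricter filter. It was 6 on the adjusted p alone and 0 to 2 without 1 array. With array weights the 1 probe was the middle NPC1 probe, lower in GO (-0.39, adjusted p = 0.011). With the stricter filter it was that of NR1H3, since SREBF1 did not pass this filter and was not tested. Without array 2 the 2 genes past both thresholds were NR1H3 and LPCAT3. Without the replicate block, taking the 8 channels as separate samples, no LXR gene or probe was past both thresholds, and 370 probes in all and 1 gene of the 8 lists were.

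The count of all probes (2399) was 1297 with normexp and loess, 1475 without the offset, 368 with normexp and no loess (347 higher and 21 lower), 908 with no filter, 147 with the plain test, 4859 on the adjusted p alone and 1566 to 2430 without 1 array, lowest without array 2. The 3 calls in the lists became 0 with normexp and no loess and 0 with the plain test, 5 with the mean over a gene's probes and 5 on the adjusted p alone. They were 2 to 6 without 1 array, with 5 without array 1 and 6 without array 4.

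NR1H3 was at 0.085 with normexp and loess, 0.076 without loess and 0.12 without the offset. It was at 0.37 with array weights, at 0.33 to 0.47 without 1 array, and at 0.39 with an adjusted p of 0.118 with no filter, 0.144 in the plain test and 0.49 without the replicate block. SREBF1 was at 0.083 with normexp and loess, 0.048 without loess and 0.13 without the offset. It was at 0.33 with array weights, at 0.30 to 0.45 without 1 array, and at 0.39 with an adjusted p of 0.117, 0.143 and 0.55 in the same order. LPCAT3 was at 0.32 to 0.43 without 1 array. For NR1H3 and SREBF1, whose signals are dim, an offset of 50 pulls the ratio towards 0 by construction. The cause of the remaining differences was not tested. No result reversed its direction past the thresholds.

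Normexp without an offset was chosen after seeing the data. The slide could not be fitted as a block, since all 4 arrays shared 1 slide, and the series table gave no other values.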
